A study of Danio rerio with 36 samples.

Results

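The genes of thyroid hormone action named thraa, thrab, thrb, dio1, dio2, dio3b, slc5a5 and ttr were followed through RNA sequencing of a zebrafish model of mucopolysaccharidosis IIIA. Members were taken by these 8 gene names, and 7 of them had a row among the 32520 genes of the count tables. No row was named thrab, so no value is given for it. The names were selected on expression results of these same libraries that were already known, with no single contrast recorded as the ground. The tests below came from fits over all genes of those libraries, so their p-values are no independent support. The 36 libraries formed 12 groups of 3. Mutant fish, called sgsh here, were homozygous for the sgshΔex5-6 allele, which lacks exons of the gene for a lysosomal sulfatase that breaks down heparan sulfate, and the other fish were wild type at this gene. Both genotypes were sampled as whole embryos at 24 hours post fertilisation (hpf), heads of larvae at 5 days post fertilisation (dpf), and dissected brains at 2, 3 and 18 months. Further brains of both genotypes at 2 months carried Tg(-3.5ubb:mTagBFP2-T2A-sgsh), a stable transgene in which the ubiquitously active ubb promoter drives sgsh together with a blue fluorescent protein. Embryo and head libraries were pools of 50 animals, and the labels give n = 3 beside each brain library.

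Thyroid hormone is made in the thyroid follicles, which take up iodide through the sodium/iodide symporter Slc5a5, and it travels in the blood on carriers such as transthyretin (Ttr). Inside target tissues the deiodinases set its activity. Dio2 turns the prohormone thyroxine into the active hormone triiodothyronine, Dio3 inactivates both, and Dio1 can do either. Active hormone binds the nuclear receptors of the thra and thrb genes, which switch target genes on or off and shape the development of the brain, retina and skeleton.

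The libraries held between 16200025 and 26038889 counts. The 24 hpf, 3-month and 18-month libraries came in 1 table and the 5 dpf and 2-month libraries in files of their own. The name of the table gives STAR and featureCounts, but its strand setting and filters are not known from the sources used here. Levels across the 2 kinds of file are therefore set side by side without a test, and only differences between genotypes were tested across them. sgsh itself was read beside the labels. In brains without the transgene it stood at 2.11 to 5.15 CPM (counts-per-million of the library total) in the mutant and 4.08 to 9.09 CPM in wild type, and with the transgene at 113 to 221 CPM. At 24 hpf the mutant (6.44 to 8.32 CPM) and wild type (6.98 to 8.63 CPM) overlapped. The brain ranges of the 2 genotypes, pooled over ages, overlapped too, so as given these ranges check only the transgene labels. Among tissue markers, the 8 retina and pineal genes summed to 7224 to 8058 CPM in the heads and to 17.3 to 230 CPM in the brains. The defining liver gene fabp10a averaged 482 and 588 CPM in the groups of heads and at most 0.33 CPM in the groups of brains. The whole list of 10 liver genes summed to 5435 to 6263 CPM in the heads and 566 to 1229 CPM in the brains, so other genes of that list were counted in brain. The p-values measure the spread between these libraries only, and since no source used here gives clutches, genotype and clutch cannot be told apart. In bulk tissue, fewer cells of a type and less RNA per cell cannot be told apart either.

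Divided by gene length (CPM per kilobase of gene, RPKM), the most abundant members differed between stages. In wild-type brain at 3 months, dio2 stood at 60.8 ± 6.45 RPKM (SD, n = 3) and thrb at 23.0 ± 2.55 RPKM. The deiodinases dio3b and dio1 followed at 11.8 ± 0.95 and 6.94 ± 0.47 RPKM, slc5a5 at 5.40 ± 0.17 RPKM and thraa at 2.64 ± 0.26 RPKM. The head at 5 dpf had another order, led by ttr at 103 ± 4.87 RPKM, with thrb at 11.2 ± 0.42, dio1 at 6.33 ± 0.50, thraa at 5.47 ± 0.09, dio3b at 4.90 ± 0.25, dio2 at 0.90 ± 0.14 and slc5a5 at 0.61 ± 0.15 RPKM. In the wild-type embryo at 24 hpf the highest were dio3b at 2.61 ± 0.39 and thrb at 2.37 ± 0.18 RPKM, and dio2, slc5a5 and ttr were each below 0.25 RPKM on average. The plot of CPM in the 36 libraries shows these levels gene by gene.

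**Figure D1:**
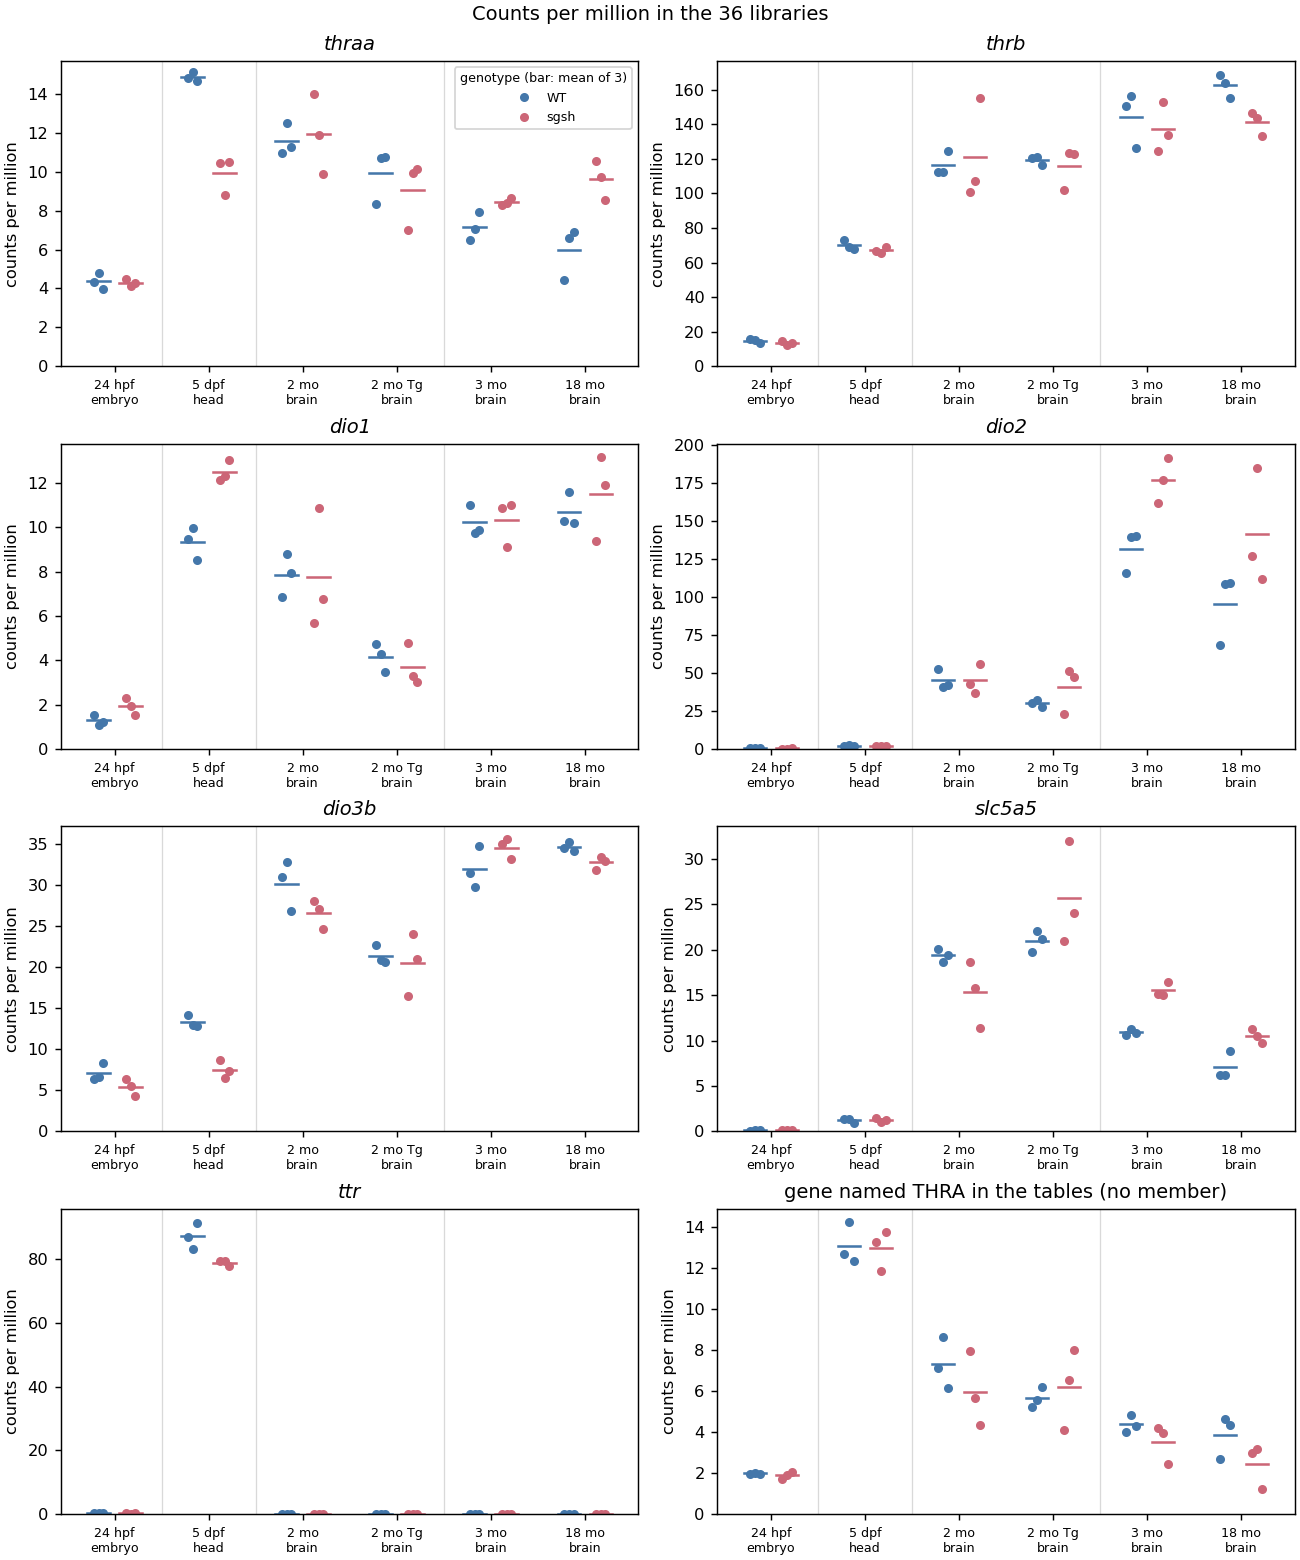
CPM (y axis, linear, from 0) of the 7 members and of the gene the tables name THRA in every library, by stage (x axis), with wild type in blue, sgsh in red and a bar at the mean of 3. The larval-head points of thraa and dio3b stand lower in sgsh, those of slc5a5 and dio2 in 3-month brain stand higher in sgsh, and ttr is near 0 outside the heads.

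Each comparison was fitted over all genes with edgeR's quasi-likelihood test, and a gene was called where its Benjamini-Hochberg adjusted p was under 0.05. Between sgsh and wild type, 2 of the 4 members tested were called at 24 hpf (dio1 higher, dio3b lower), where 21.7% of all genes tested were called, 10.8% higher and 10.9% lower, and 1 of 4 had groups that did not overlap against 36.2% of all genes. In the larval heads 3 of 7 were called (dio1 higher, thraa and dio3b lower) against 14.4%, 5.71% higher and 8.67% lower, and 4 of 7 did not overlap against 31.4%. In 3-month brain 2 of 6 were called (slc5a5 and dio2, both higher) against 2.89%, 2.01% higher and 0.878% lower, and 3 of 6 did not overlap against 25.2%. In 18-month brain 1 of 6 was called (thraa, higher) against 6.72%, 4.52% higher and 2.2% lower, and 5 of 6 did not overlap against 33.8%. In 2-month brain none of 6 was called where 0.841% of genes were, and 1 of 6 did not overlap against 15.5%. In transgenic 2-month brain none of 6 was called where 0.0304% of genes were, and none was without overlap against 13.7%. In these last 2 comparisons DESeq2 also called 0, and 0 members had an unadjusted edgeR p under 0.05.

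**Figure D2:**
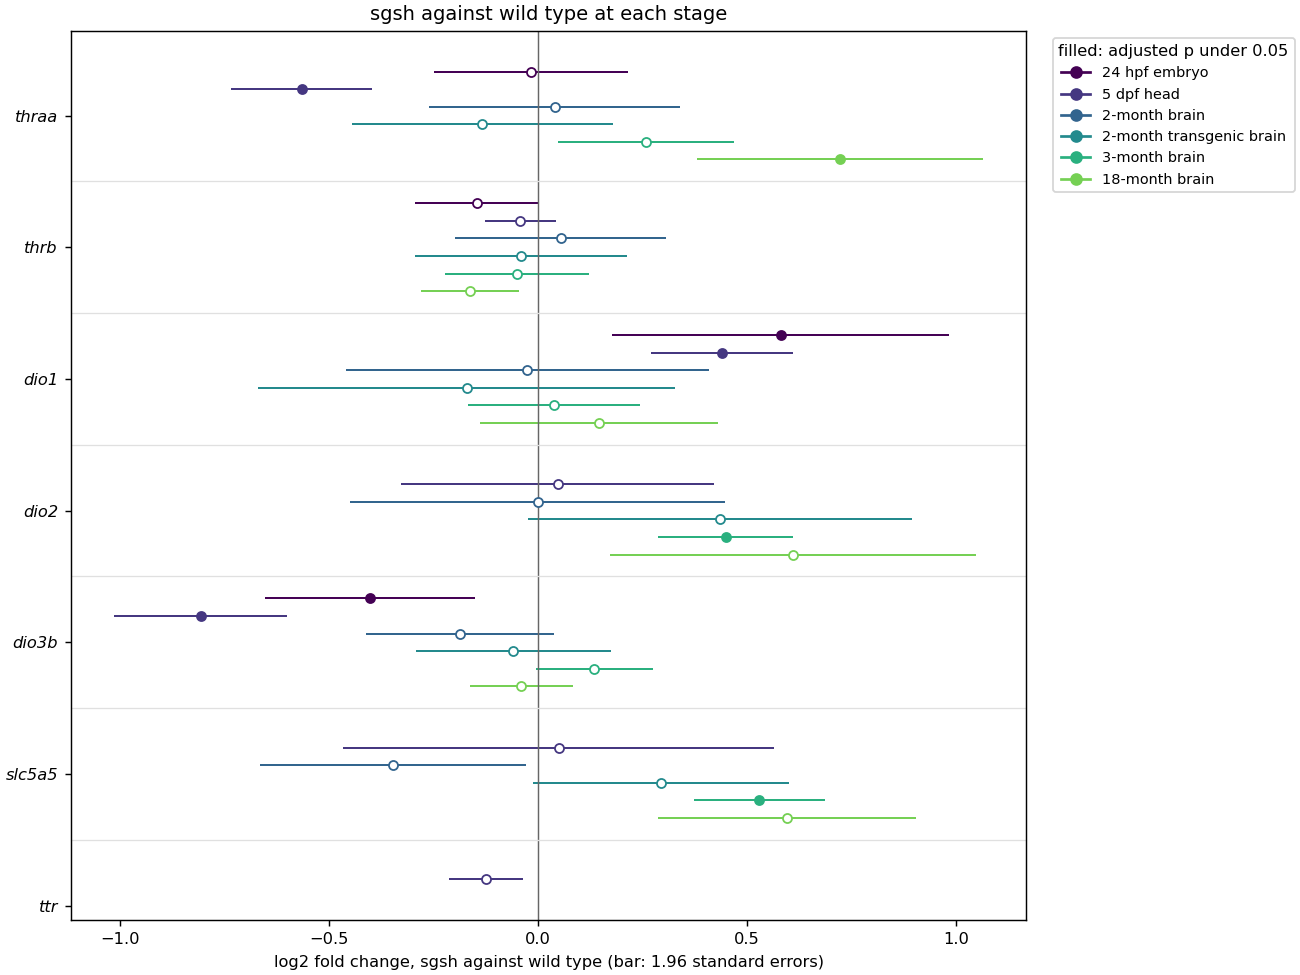
log2 fold change of sgsh against wild type (x axis, bars of 1.96 standard errors) for each member (y axis) at 6 stages given by colour, with filled points where the adjusted p was under 0.05. thraa lies at -0.57 in the heads and at 0.72 in 18-month brain, dio3b is lowest in the heads at -0.81, and every thrb point is open.

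The receptor gene thraa was lower in sgsh heads and higher in old sgsh brains. It lies on chromosome 3 from 34688022 to 34753605, on the minus strand (GRCz11, as in the tables), and its exons overlap dusp3b on the opposite strand, which had 12 counts or fewer in every library. In the 5 dpf heads, thraa stood at 10.5, 8.79 and 10.5 CPM in sgsh and 14.8, 15.1 and 14.7 CPM in wild type. All 3 mutant libraries were below all 3 wild-type ones, a 1.48-fold lower level (log2 fold change -0.57 ± 0.09 SE, adjusted p = 0.000654). In 18-month brain the values were 10.6, 9.71 and 8.57 CPM in sgsh and 4.44, 6.60 and 6.91 CPM in wild type. Here the mutant libraries were all above the wild-type ones, 1.65-fold (log2 0.72 ± 0.17, adjusted p = 0.0482). That call was lost on leaving out any 1 of the 6 libraries, with adjusted p between 0.0541 (without sgsh replicate 1) and 0.151 (without sgsh replicate 2), while the log2 fold change stayed between 0.55 and 0.84. RLE scaling (adjusted p = 0.0531) and testing without a filter on low counts (0.0596) ended it too. Beside it at 18 months, the 5 endothelium and blood-brain barrier genes found summed to 118 to 133 CPM in sgsh and 81.6 to 99.6 CPM in wild type, with none at 0, and the 4 microglia genes to 319 to 355 and 194 to 223 CPM, with none at 0. The 6 radial glia and astroglia genes found summed to 6112 to 6440 CPM in sgsh and 5371 to 5677 CPM in wild type, and the 4 kidney genes to 8.61 to 13.9 and 3.24 to 8.07 CPM, again with none at 0. The 5 genes of meninges and ependyma stood at 77.7 to 102 and 60.1 to 69.5 CPM, with ptgdsb.2 at 0 in both, and the 8 pituitary genes at 2.16 to 2.50 and 2.92 to 3.15 CPM, with gh1 at 0 in sgsh. The part of all these lists in the results at 18 months was not tested.

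At 3 months thraa read 8.31, 8.37 and 8.62 CPM in sgsh and 6.51, 7.06 and 7.93 CPM in wild type. The groups did not overlap, but the difference was not called (log2 0.26 ± 0.11, adjusted p = 0.246). At 24 hpf (log2 -0.02 ± 0.12), in 2-month brain (0.04 ± 0.15) and in transgenic 2-month brain (-0.13 ± 0.16) the groups overlapped and thraa was not called, with 95% intervals of the 2-month differences from -0.26 to 0.34 and from -0.45 to 0.18. The gene that the tables name THRA, on chromosome 12 from 21799130 to 22039350, was not called between sgsh and wild type at any stage. In the heads it read 13.0 ± 0.99 CPM in sgsh and 13.1 ± 1.01 CPM in wild type, and at 18 months 2.45 ± 1.08 and 3.87 ± 1.06 CPM.

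The other receptor gene, thrb, known for its roles in the retina and in feedback on the pituitary, was the most abundant receptor transcript per length at every stage and was called in no comparison of genotype. It lies on chromosome 19 from 17514631 to 17658253, on the minus strand. In the heads it measured 66.8, 65.4 and 68.9 CPM in sgsh and 72.9, 68.8 and 68.0 CPM in wild type, and in 3-month brain 124, 153 and 134 CPM against 150, 156 and 126 CPM. Those groups overlapped. At 18 months the mutant libraries (146, 144 and 133 CPM) were all below the wild-type ones (169, 164 and 155 CPM), 1.12-fold, without a call (log2 -0.16 ± 0.06, adjusted p = 0.124). It was also called in neither comparison of transgene or of age, and its log2 fold changes over these comparisons ran from -0.16 to 0.19.

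Among the deiodinases, dio3b was lower and dio1 higher in sgsh at both early stages. dio3b lies on chromosome 20 from 53802521 to 53810638, on the plus strand, and the tables class it as a processed transcript. In the heads it stood at 8.67, 6.48 and 7.40 CPM in sgsh and at 14.1, 13.0 and 12.9 CPM in wild type. The groups were well apart, and the mutant level was 1.75-fold lower (log2 -0.81 ± 0.11, adjusted p = 0.000208). In the embryos it read 6.34, 5.52 and 4.25 CPM in sgsh and 6.33, 6.66 and 8.30 CPM in wild type. One mutant library reached the lowest wild-type one, and the difference was smaller, 1.32-fold (log2 -0.40 ± 0.13, adjusted p = 0.0269). It was not called without sgsh replicate 3 (adjusted p = 0.17), without wild-type replicate 3 (0.179) or with DESeq2 (0.0865).

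In the adult brain dio3b was not called between genotypes. It measured 34.6 ± 1.28 CPM in sgsh and 32.0 ± 2.58 CPM in wild type at 3 months (log2 0.13 ± 0.07, adjusted p = 0.372), and 32.7 ± 0.77 and 34.6 ± 0.57 CPM at 18 months (log2 -0.04 ± 0.06, adjusted p = 0.702), where the mutant libraries were all slightly lower. At 2 months it read 26.6 ± 1.77 and 30.2 ± 3.08 CPM (log2 -0.19 ± 0.12, adjusted p = 0.601).

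dio1, on chromosome 8 from 18039570 to 18042089 on the minus strand, had 12.1, 12.3 and 13.0 CPM in sgsh heads and 9.49, 9.96 and 8.53 CPM in wild-type heads. Every mutant library was above every wild-type one, 1.36-fold (log2 0.44 ± 0.09, adjusted p = 0.00399). At 24 hpf it read 2.30, 1.93 and 1.55 CPM in sgsh against 1.54, 1.08 and 1.23 CPM in wild type, from 28 to 57 counts a library. The mutant was higher (log2 0.58 ± 0.21, adjusted p = 0.047), and the groups were barely apart, at 1.55 and 1.54 CPM. This call was lost without sgsh replicate 1 (adjusted p = 0.194), sgsh replicate 2 (0.105), wild-type replicate 2 (0.176) or wild-type replicate 3 (0.107), and with DESeq2 (0.191). In brains of sgsh and wild type dio1 overlapped at 2, 3 and 18 months, with log2 fold changes of -0.03 ± 0.22, 0.04 ± 0.10 and 0.15 ± 0.15.

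Markers of other cells moved in the heads as well. The 4 thyroid gland genes found, none of them at 0, summed to 37.6 to 43.9 CPM in sgsh and 53.0 to 54.8 CPM in wild type. The thyroglobulin gene tg, given below, made up most of this sum in both genotypes. The 4 microglia genes, with none at 0, summed to 552 to 604 and 648 to 735 CPM, and the 5 genes of meninges and ependyma, again with none at 0, to 459 to 495 and 295 to 361 CPM. Liver, where dio1 is known to be active, gave 5948 to 6263 CPM over its 10 genes in sgsh and 5435 to 6179 CPM in wild type, with none at 0. The 6 radial glia and astroglia genes (1767 to 1821 and 1832 to 1884 CPM) and the 4 kidney genes (90.2 to 97.3 and 98.8 to 99.9 CPM), with none at 0, were lower in all 3 mutant libraries. The part of these in the changes of thraa, dio3b and dio1 was not tested. In the embryos the 5 endothelium and blood-brain barrier genes summed to 192 to 204 CPM in sgsh and 225 to 236 CPM in wild type, and the 4 thyroid gland genes to 7.47 to 7.81 and 6.80 to 7.25 CPM, with none at 0. The 8 pituitary genes summed to 2.46 to 3.40 and 1.97 to 2.34 CPM there, with tshba at 0 in both genotypes and cga, lhb and fshb at 0 in wild type, and the part of these lists in the dio1 and dio3b results was not tested either.

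dio2 was low in embryos and heads and was higher in sgsh brain at 3 months. The gene lies on chromosome 17 from 16873417 to 16876752, on the plus strand. Its level in 3-month brain was 162, 177 and 191 CPM in sgsh and 115, 139 and 140 CPM in wild type. The groups did not overlap, and sgsh was 1.36-fold higher (log2 0.45 ± 0.08, adjusted p = 0.0211). Without sgsh replicate 3 the adjusted p was 0.0576, without wild-type replicate 1 it was 0.0535 and without wild-type replicate 2 it was 0.0598. In a fit of the 3-month and 18-month brains together it was 0.295. At 18 months dio2 read 127, 185 and 112 CPM in sgsh and 68.5, 109 and 109 CPM in wild type. These groups too did not overlap, and the difference of 1.53-fold was not called (log2 0.61 ± 0.22, adjusted p = 0.122), though the joint fit gave an adjusted p of 0.0446.

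At 2 months dio2 averaged 45.2 ± 9.64 CPM in sgsh and 45.2 ± 6.35 CPM in wild type, with a 95% interval of the log2 difference from -0.45 to 0.45. With the transgene it read 22.8, 51.5 and 47.1 CPM in sgsh and 30.1, 32.5 and 27.4 CPM in wild type. The lowest of these 6 libraries was a mutant one and the groups overlapped (log2 0.44 ± 0.24, adjusted p = 0.827). In the heads, 33 to 35 counts in sgsh and 28 to 38 in wild type allowed only a wide estimate (log2 0.05 ± 0.19).

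The iodide symporter gene slc5a5, on chromosome 8 from 13364950 to 13382351 on the plus strand, was higher in sgsh than in wild-type brain at 3 months. It read 15.2, 15.1 and 16.4 CPM in sgsh and 10.7, 11.3 and 10.9 CPM in wild type. The groups were well separated and sgsh was 1.44-fold higher (log2 0.53 ± 0.08, adjusted p = 0.00796), a call that held under every alternative run for it. At 18 months the values were 11.3, 10.5 and 9.68 CPM in sgsh against 6.26, 6.24 and 8.88 CPM in wild type. sgsh was again higher in all 3 libraries, by a similar 1.51-fold, but just short of the threshold (log2 0.60 ± 0.16, adjusted p = 0.059). It passed without wild-type replicate 3 (adjusted p = 0.0325), with DESeq2 (0.0268) and in the joint fit (0.00913). The difference between genotypes was not called as changing between 3 and 18 months (log2 0.05 ± 0.17, adjusted p = 0.914).

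At 2 months without the transgene slc5a5 lay the other way. sgsh libraries measured 18.7, 15.8 and 11.4 CPM and wild-type libraries 20.1, 18.7 and 19.5 CPM, so that the highest mutant library lay just under the lowest wild-type one. The difference was not called (log2 -0.35 ± 0.16, adjusted p = 0.445), and with a library left out it ran from -0.52 to -0.18. Across genes, sgsh replicate 3, the lowest here, stood apart from replicates 1 and 2, with a chi-square per degree of freedom of 10.8 and 9.49. Between replicates 1 and 2 it was 3.55. In transgenic 2-month brain slc5a5 read 21.0 to 32.0 CPM in sgsh and 19.8 to 22.1 CPM in wild type. Those groups overlapped without a call, and with a library left out the log2 difference ran from 0.11 to 0.42. At 2 months without the transgene the 4 oligodendrocyte genes summed to 8283 to 9538 CPM in sgsh and 10315 to 10898 CPM in wild type. The 5 endothelium and blood-brain barrier genes stood at 176 to 186 and 168 to 171 CPM, and the 4 thyroid gland genes at 3.65 to 4.40 and 4.44 to 4.79 CPM, with none at 0. The 4 thyroid gland genes summed to 5.74 CPM or less in every brain library and to 37.6 to 54.8 CPM in the heads, with none at 0. slc5a5 stood at 1.23 to 1.26 CPM on group average in the heads. Some brain libraries came in the other kind of file than the heads, so these levels stand side by side without a test. At 3 months the 3 red blood cell genes found summed to 136 to 145 CPM in sgsh and 185 to 296 CPM in wild type, the 4 oligodendrocyte genes to 10952 to 11174 and 11686 to 12778 CPM, and the 4 microglia genes to 284 to 305 and 227 to 255 CPM, with none of these genes at 0. The 4 kidney genes stood at 10.3 to 11.5 and 5.5 to 6.39 CPM, the 10 liver genes at 1092 to 1229 and 805 to 1010 CPM, and the 5 endothelium and blood-brain barrier genes at 102 to 124 and 92.7 to 98.8 CPM, with none at 0. The 8 retina and pineal genes summed to 163 to 202 and 134 to 156 CPM, with opn1mw1 at 0 in sgsh. The part of all these lists in the slc5a5 and dio2 results was not tested.

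The carrier gene ttr, on chromosome 20 from 6142433 to 6157942 on the plus strand, was counted almost only in the head libraries. Larval heads held 79.5, 79.4 and 77.9 CPM in sgsh and 87.1, 83.1 and 91.3 CPM in wild type. The mutant libraries were all lower, by 1.09-fold, without a call (log2 -0.13 ± 0.04, adjusted p = 0.084), and leaving out wild-type replicate 2 brought the adjusted p to 0.0427. At 24 hpf there were 3 to 8 counts a library, too few for the test. The 24 brain libraries together held 7 counts of ttr, and 18 of them held none. Measured against a floor of 3 counts over the 3 libraries, wild-type heads were at least 1430-fold higher than wild-type 2-month brains. In sgsh, where the 2-month brains held 1 count, the ratio was 3893-fold with an exact counting interval from 698 to 153799. Beside these ratios, the 10 liver genes summed to 5435 to 6179 CPM in wild-type heads, with none at 0, and 616 to 700 CPM in wild-type 2-month brains. There fabp10a, the defining liver gene given above, and serpina1 were at 0, so the other genes of the list made up the brain sum. In sgsh the 10 liver genes summed to 5948 to 6263 and 669 to 795 CPM, with none at 0. The part of liver tissue in the ttr difference between heads and brains was not tested. In mammals the choroid plexus of the brain is a known source of transthyretin.

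The transgene comparison sets 2-month brains with the transgene against those without it in each genotype. Its contrasts share the 2-month groups with those of genotype. No source used here gives clutches, so transgene and clutch cannot be told apart. Added sgsh and the fluorescent protein that comes with it cannot be told apart either. Of the 6 members tested, 3 were called in sgsh (1 higher, 2 lower), against 18.4% of all genes, 8.85% higher and 9.51% lower, and 2 in wild type (both lower), against 15.2%, 6.79% higher and 8.45% lower. In sgsh 3 of 6 had groups that did not overlap, against 32.9%, and in wild type 4 of 6, against 37.4%. dio1 had the largest fall. In sgsh it went from 5.66, 10.9 and 6.76 CPM without the transgene to 4.77, 3.29 and 3.01 CPM with it, a 2.08-fold lower level (log2 -1.06 ± 0.24, adjusted p = 0.00791). In wild type it went from 6.86, 8.82 and 7.93 CPM to 4.72, 4.31 and 3.46 CPM, or 1.88-fold lower (log2 -0.91 ± 0.24, adjusted p = 0.0195). No transgenic library reached a non-transgenic one of its genotype. The wild-type call was lost without non-transgenic replicate 2 (adjusted p = 0.0682) or 3 (0.0514) and without transgenic replicate 2 (0.0526) or 3 (0.0774).

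dio3b also fell with the transgene in both genotypes. Wild-type brains read 30.9, 32.8 and 26.8 CPM without it and 22.7, 20.9 and 20.6 CPM with it. They did not overlap, and the level was 1.41-fold lower (log2 -0.49 ± 0.12, adjusted p = 0.0124, or 0.0514 without non-transgenic replicate 2). sgsh brains read 28.0, 27.1 and 24.6 CPM without and 16.4, 24.1 and 21.0 CPM with the transgene. Here too all 3 transgenic libraries were lower, 1.29-fold (log2 -0.36 ± 0.12, adjusted p = 0.0458), but the call was lost without non-transgenic replicate 1 (0.128) or 2 (0.0984), without transgenic replicate 1 (0.149) or 3 (0.0968), and in a fit of these 6 libraries alone (0.0963).

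slc5a5 rose with the transgene in sgsh, from 18.7, 15.8 and 11.4 CPM to 21.0, 32.0 and 24.1 CPM. The groups did not overlap and the level was 1.69-fold higher (log2 0.76 ± 0.16, adjusted p = 0.00512). In wild type it went from 19.4 ± 0.73 to 21.0 ± 1.17 CPM and was not called (log2 0.12 ± 0.16, adjusted p = 0.676). The test of the difference between genotypes in the transgene's effect called no member, where 0.127% of all genes were called, DESeq2 called 0 members, and slc5a5 alone had an unadjusted p under 0.05 (log2 0.64 ± 0.23, adjusted p = 0.355). thraa, dio2 and thrb were not called in either genotype. dio2 in wild type read 52.5, 41.0 and 42.1 CPM without the transgene and 30.1, 32.5 and 27.4 CPM with it. These groups did not overlap (log2 -0.59 ± 0.23, adjusted p = 0.111), and a fit of these 6 libraries alone called it (0.00321). thraa in sgsh was called without non-transgenic replicate 3 (log2 -0.50, adjusted p = 0.0423). Markers of other cells moved with the transgene as well. The 4 oligodendrocyte genes summed to 8283 to 9538 CPM in sgsh without it and 13104 to 15004 CPM with it, and to 10315 to 10898 and 11826 to 13573 CPM in wild type. The 5 endothelium and blood-brain barrier genes went from 176 to 186 CPM down to 146 to 151 CPM in sgsh and from 168 to 171 down to 134 to 150 CPM in wild type, with none of either list at 0. The 5 genes of meninges and ependyma went from 284 to 344 up to 486 to 557 CPM in sgsh and from 247 to 287 up to 432 to 468 CPM in wild type, and the 4 kidney genes from 9.70 to 17.4 down to 5.25 to 6.59 CPM and from 11.6 to 14.1 down to 6.27 to 8.27 CPM, with none at 0. The 7 neuron genes (5778 to 6005 and 6220 to 6546 CPM in sgsh, 5709 to 5976 and 6291 to 6413 CPM in wild type), the 4 microglia genes (370 to 432 and 462 to 626 CPM, 379 to 384 and 423 to 489 CPM) and the 10 liver genes (669 to 795 and 820 to 1041 CPM, 616 to 700 and 719 to 958 CPM) were higher with the transgene in both, with none at 0 but fabp10a and serpina1 in non-transgenic wild type. In sgsh alone the groups were also apart for the 4 thyroid gland genes (3.65 to 4.40 and 4.76 to 5.74 CPM) and the 3 red blood cell genes (259 to 377 and 160 to 192 CPM), with none at 0. In wild type alone they were apart for the 6 radial glia and astroglia genes (6217 to 6543 and 5340 to 5672 CPM), with none at 0, and the 8 retina and pineal genes (153 to 211 and 92.4 to 148 CPM), with opn1mw1 at 0 without the transgene. The part of all these lists in the changes of dio1, dio3b, dio2 and slc5a5 was not tested.

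Between 3 and 18 months, slc5a5 was the 1 member of 6 called in each genotype, lower with age, against 20.8% of all genes in wild type (9.14% higher, 11.7% lower) and 19.5% in sgsh (9.87% higher, 9.6% lower). As no source used here gives clutches, age and clutch cannot be told apart. Groups did not overlap for 2 of 6 in wild type, against 41.7%, and 1 of 6 in sgsh, against 34.7%. In wild-type brain slc5a5 went from 10.7, 11.3 and 10.9 CPM to 6.26, 6.24 and 8.88 CPM, 1.52-fold lower (log2 -0.61 ± 0.13, adjusted p = 0.00522). sgsh brain fell from 15.2, 15.1 and 16.4 CPM to 11.3, 10.5 and 9.68 CPM, 1.47-fold (log2 -0.56 ± 0.12, adjusted p = 0.00762). In both genotypes the old libraries were all below the young ones, so old sgsh brain (10.5 ± 0.79 CPM) stood close to young wild-type brain (10.9 ± 0.33 CPM), and those 2 groups overlapped. dio2 had negative log2 fold changes with age, -0.45 ± 0.19 in wild type and -0.31 ± 0.19 in sgsh, and was not called (adjusted p = 0.112 and 0.266), though without old replicate 2 it passed in sgsh (0.0442). With age the 4 oligodendrocyte genes went from 11686 to 12778 CPM down to 7545 to 8866 CPM in wild type and from 10952 to 11174 down to 6449 to 8275 CPM in sgsh, and the 6 radial glia and astroglia genes from 6636 to 6766 down to 5371 to 5677 CPM and from 6453 to 6782 down to 6112 to 6440 CPM, with none at 0. The 5 genes of meninges and ependyma, with ptgdsb.2 at 0 throughout, went from 102 to 113 down to 60.1 to 69.5 CPM in wild type and from 108 to 119 down to 77.7 to 102 CPM in sgsh. The 4 microglia genes, with none at 0, went from 227 to 255 down to 194 to 223 CPM in wild type and from 284 to 305 up to 319 to 355 CPM in sgsh. Groups were also apart in wild type for the 7 neuron genes (8054 to 8162 and 8325 to 8535 CPM, none at 0) and the 8 pituitary genes (1.95 to 2.79 and 2.92 to 3.15 CPM, tshba at 0 at 3 months), and in sgsh for the 10 liver genes (1092 to 1229 and 783 to 1035 CPM, none at 0) and the 8 retina and pineal genes (163 to 202 and 64.5 to 144 CPM, opn1mw1 at 0 in both). The part of these lists in the fall of slc5a5 was not tested. The test of a genotype difference in the change with age called no member by edgeR or DESeq2, with thraa the single member at an unadjusted p under 0.05 (log2 0.45 ± 0.21, adjusted p = 0.326), where 0.126% of all genes were called.

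**Figure D3:**
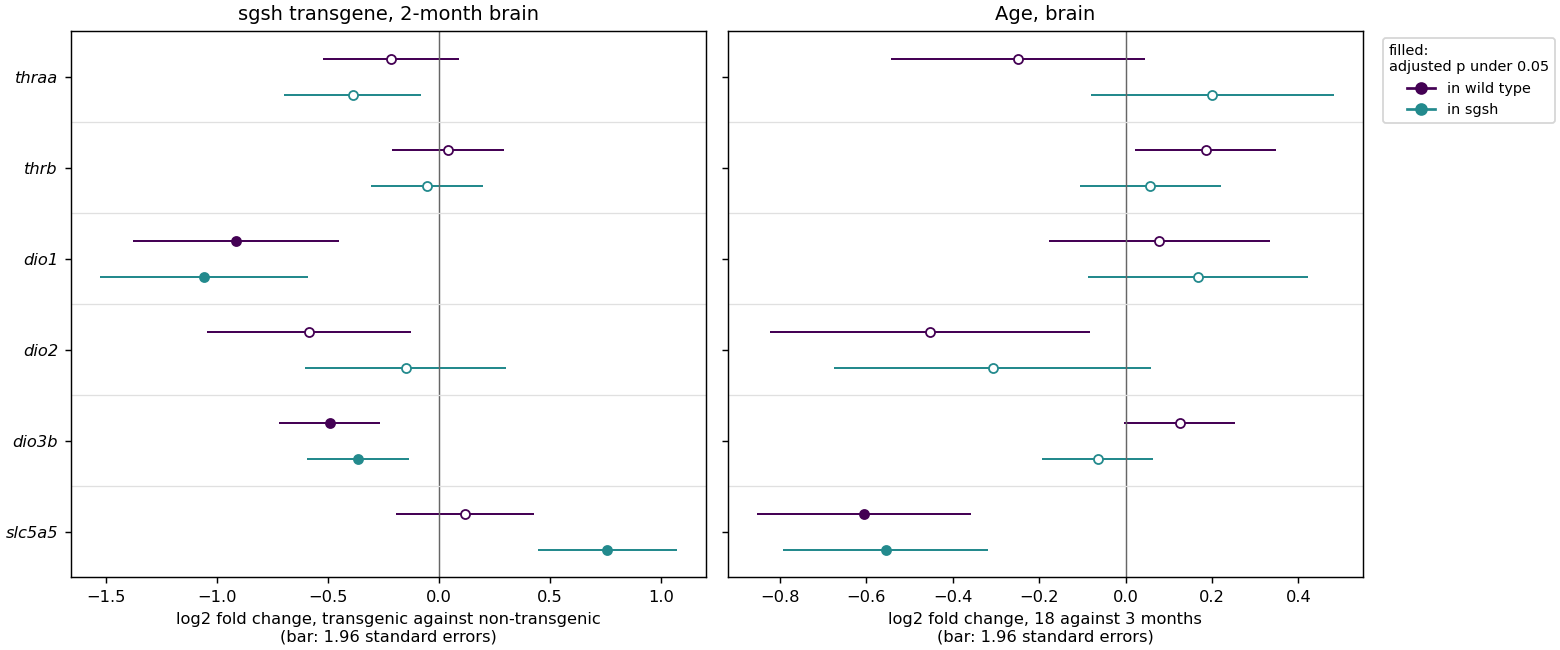
log2 fold changes (x axis, bars of 1.96 standard errors) of 6 members (y axis) with the transgene in 2-month brain (left) and from 3 to 18 months (right), in wild type and in sgsh, with filled points where the adjusted p was under 0.05. dio1 and dio3b lie below 0 with the transgene in both genotypes, and slc5a5 lies below 0 with age in both.

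The difference between sgsh and wild type was also tested between stages, in comparisons added after the values were seen. Between 24 hpf and 3 months 1 of 6 members was called (dio3b), against 8.2% of all genes, between 5 dpf and 3 months 2 of 7 (thraa and dio3b), against 8.16%, and between 5 dpf and 18 months the same 2 of 7, against 12.6%. slc5a5 was the 1 of 6 called between 2 and 3 months, against 0.955%, and between 2 and 18 months, against 3.71%. All of these calls except that of dio3b between 24 hpf and 3 months cross the 2 kinds of file. Stage and kind of file cannot be told apart in them, and no alternative separates the 2. The calls of thraa and dio3b between 5 dpf and both later ages held under every alternative run for them. That of dio3b between 24 hpf and 3 months was lost on leaving out any of 8 of the 12 libraries (adjusted p up to 0.159), and those of slc5a5 on leaving out any of 10 of 12 (up to 0.0928) between 2 and 3 months and any of 9 of 12 (up to 0.109) between 2 and 18 months. Between 5 dpf and 2 months, where the files were counted alike, none of 7 was called by edgeR against 1.26%, while thraa (adjusted p = 0.0881) and dio3b (0.0567) had unadjusted p under 0.05. There DESeq2 (0.0254), testing without a filter (0.0384) and asking for 10 counts in every library (0.0468) each called dio3b.

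Embryo and head were also set against brain within each kind of file, where tissue and age differ together. From 24 hpf embryo to 3-month brain, all 6 members tested were higher in both genotypes, in comparisons that called 89.9% of all genes in wild type (44.3% higher) and 89.6% in sgsh (44.1% higher). No member's groups overlapped, as for 90.8% and 89.7% of all genes. dio2 rose most, 297-fold in wild type (log2 8.22 ± 0.17) and 608-fold in sgsh (9.25 ± 0.18), from 2 to 16 counts a library in the embryos. With a library left out, the log2 fold change of dio2 in sgsh ranged from 8.82 to 10.02, the highest without embryo replicate 3. slc5a5 rose 95.5-fold and 110-fold from 2 to 4 counts a library, thrb 9.13-fold and 9.81-fold, dio1 7.46-fold and 5.16-fold, dio3b 4.24-fold and 6.19-fold, and thraa 1.55-fold and 1.88-fold. From 5 dpf head to 2-month brain 6 of 7 members were called in each genotype, against 78.4% of all genes in wild type and 77.5% in sgsh, and 6 of 7 did not overlap, against 82.1% and 80.1%. dio2 was 21.6-fold and 20.9-fold higher in brain, slc5a5 14.7-fold and 11.2-fold, dio3b 2.12-fold and 3.26-fold, and thrb 1.56-fold and 1.67-fold. ttr was lower in brain, as above. thraa was lower in wild-type brain (1.37-fold, adjusted p = 0.00166) and not called in sgsh (log2 0.15 ± 0.12), and dio1 was lower in sgsh brain (1.75-fold, adjusted p = 0.000503) and not called in wild type (log2 -0.34 ± 0.18). These differences between genotypes in the call did not hold throughout. dio1 in wild type was called with 10 counts asked for in every library (adjusted p = 0.0291) and in its 6 libraries alone (0.02), and thraa in sgsh was called without 2-month replicate 3 as higher in brain (log2 0.26, adjusted p = 0.0336).

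Within a library, the ratios of thrb to thraa and of dio2 to dio3b were higher in most brains than in embryos and heads. The ratio of thrb to thraa, per gene length, was 1.29 to 1.58 in the embryos, 1.98 to 2.14 in wild-type heads and 2.77 to 3.23 in sgsh heads. In brain it was 3.14 to 6.82 over the 2-month libraries, 6.50 to 10.04 at 3 months, 6.03 to 6.75 in sgsh at 18 months and 9.73 to 16.5 in wild type at 18 months. At 18 months and in the heads the 2 genotypes did not overlap, in opposite directions. The ratio of dio2 to dio3b was below 0.15 in every embryo library, 0.146 to 0.215 in wild-type heads and 0.276 to 0.392 in sgsh heads. It was 1.57 to 2.85 in the 2-month brains and 2.49 to 7.26 in the 3- and 18-month brains. These ratios use the same counts as the tests above and carry no test of their own.

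**Figure D4:**
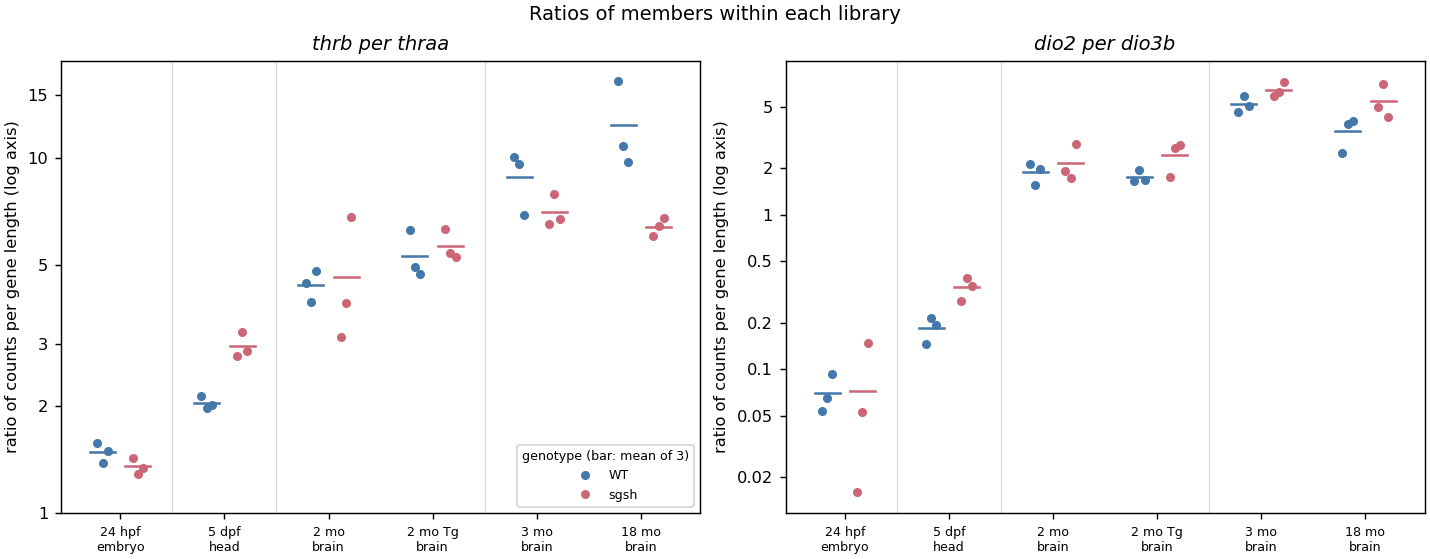
Ratio of counts per gene length within each library (y axis, log axis) for thrb to thraa (left) and dio2 to dio3b (right) by stage (x axis), wild type in blue and sgsh in red with a bar at the mean of 3. thrb to thraa is higher in sgsh than in wild-type heads and lower in sgsh than in wild-type brain at 18 months.

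Other genes of thyroid hormone action were taken from a list of 45 written by role, of which 40 were found. In the heads, 2 of the 39 tested were called higher in sgsh and 5 lower, against 5.71% and 8.67% of all genes, with a list median log2 fold change of 0.00 beside 0.00 over all genes. Those that fell included klf9, a transcription factor gene that thyroid hormone and glucocorticoids induce, at 41.3 ± 8.24 CPM in sgsh and 74.2 ± 3.75 CPM in wild type (log2 -0.83 ± 0.10, adjusted p = 0.000105). Of the 4 genes tested under hormone binding and targets, the other 3 were not called, and the median log2 fold change of the 4 was 0.00. Thyroglobulin (tg), the protein on which the hormone is built, read 31.6 ± 3.42 and 43.3 ± 0.49 CPM (log2 -0.44 ± 0.07, adjusted p = 0.000653). The anion exchanger gene slc26a4 read 0.89 ± 0.09 and 1.66 ± 0.45 CPM (log2 -0.88 ± 0.27, adjusted p = 0.0438). Both tg and slc26a4 also enter the sum of thyroid gland genes given above for the heads. Of the 8 genes tested under thyroid gland, 1 was called higher, 2 lower and 5 not, with a median log2 fold change of -0.03. The amino acid transporter genes slc7a8a and slc3a2b fell by 0.20 and 0.25 on the log2 scale. Higher in sgsh were duox, whose product makes the hydrogen peroxide for hormone synthesis (4.00 ± 0.62 and 2.05 ± 0.23 CPM), and the receptor partner rxraa.

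In the embryos 2 of 32 were called higher and 6 lower, against 10.8% and 10.9% of all genes, with a list median of -0.06 beside 0.00. The receptor partners rxrbb (log2 -0.44 ± 0.06) and rxrba (-0.28 ± 0.05) fell and the coactivator gene ncoa3 (0.27 ± 0.04) rose. mbpa, which encodes myelin basic protein, was at 0.44 ± 0.29 CPM in sgsh and 2.88 ± 3.86 CPM in wild type, a spread wider than its mean. In brain at 3 months 3 of 35 were called, all higher in sgsh, against 2.01% of all genes, and at 18 months 4 of 35, all higher, against 4.52%, with list medians of 0.04 and -0.05 beside -0.01 and 0.00. The subunits of amino acid and hormone transporters slc3a2a (log2 0.33 ± 0.05 and 0.79 ± 0.10) and slc7a8a (0.27 ± 0.06 and 0.41 ± 0.10) and the receptor partner rxrbb (0.27 ± 0.05 and 0.45 ± 0.07) were called at both ages. slc16a10, a transporter of aromatic amino acids and thyroid hormone, was called at 18 months (0.66 ± 0.11). klf9 had log2 fold changes of 1.67 ± 0.41 and 1.64 ± 0.56 in these brains and was not called (adjusted p = 0.0575 and 0.105), with wild-type levels of 40.2 ± 28.9 and 60.4 ± 49.8 CPM. At 2 months none of 35 was called in either comparison of genotype, against 0.841% of all genes without and 0.0304% with the transgene.

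With the transgene 3 of 35 rose and 7 fell in sgsh, against 8.85% and 9.51% of all genes, and 2 rose and 4 fell in wild type, against 6.79% and 8.45%, with list medians of 0.01 and 0.00 beside 0.00 over all genes in both. slc16a10 fell by 0.98 in sgsh and by 0.78 in wild type on the log2 scale, and slc3a2b by 0.46 in both. trh, the hypothalamic releasing hormone gene, rose by log2 0.29 ± 0.06 and 0.23 ± 0.06. klf9 fell in sgsh, from 83.6 ± 7.70 to 36.8 ± 10.2 CPM (log2 -1.17 ± 0.28, adjusted p = 0.0109), and was not called in wild type (log2 -0.19 ± 0.28). The test of the difference between genotypes in the transgene's effect called 0 of the 35 listed genes tested, klf9 included, against 0.127% of all genes. mbpa rose in both, by log2 0.76 ± 0.07 in sgsh and 0.31 ± 0.07 in wild type. With age mbpa was lower at 18 months in both genotypes (log2 -0.43 ± 0.09 and -0.52 ± 0.09). mbpa also belongs to the oligodendrocyte list summed above, so the same counts enter both.

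**Figure D5:**
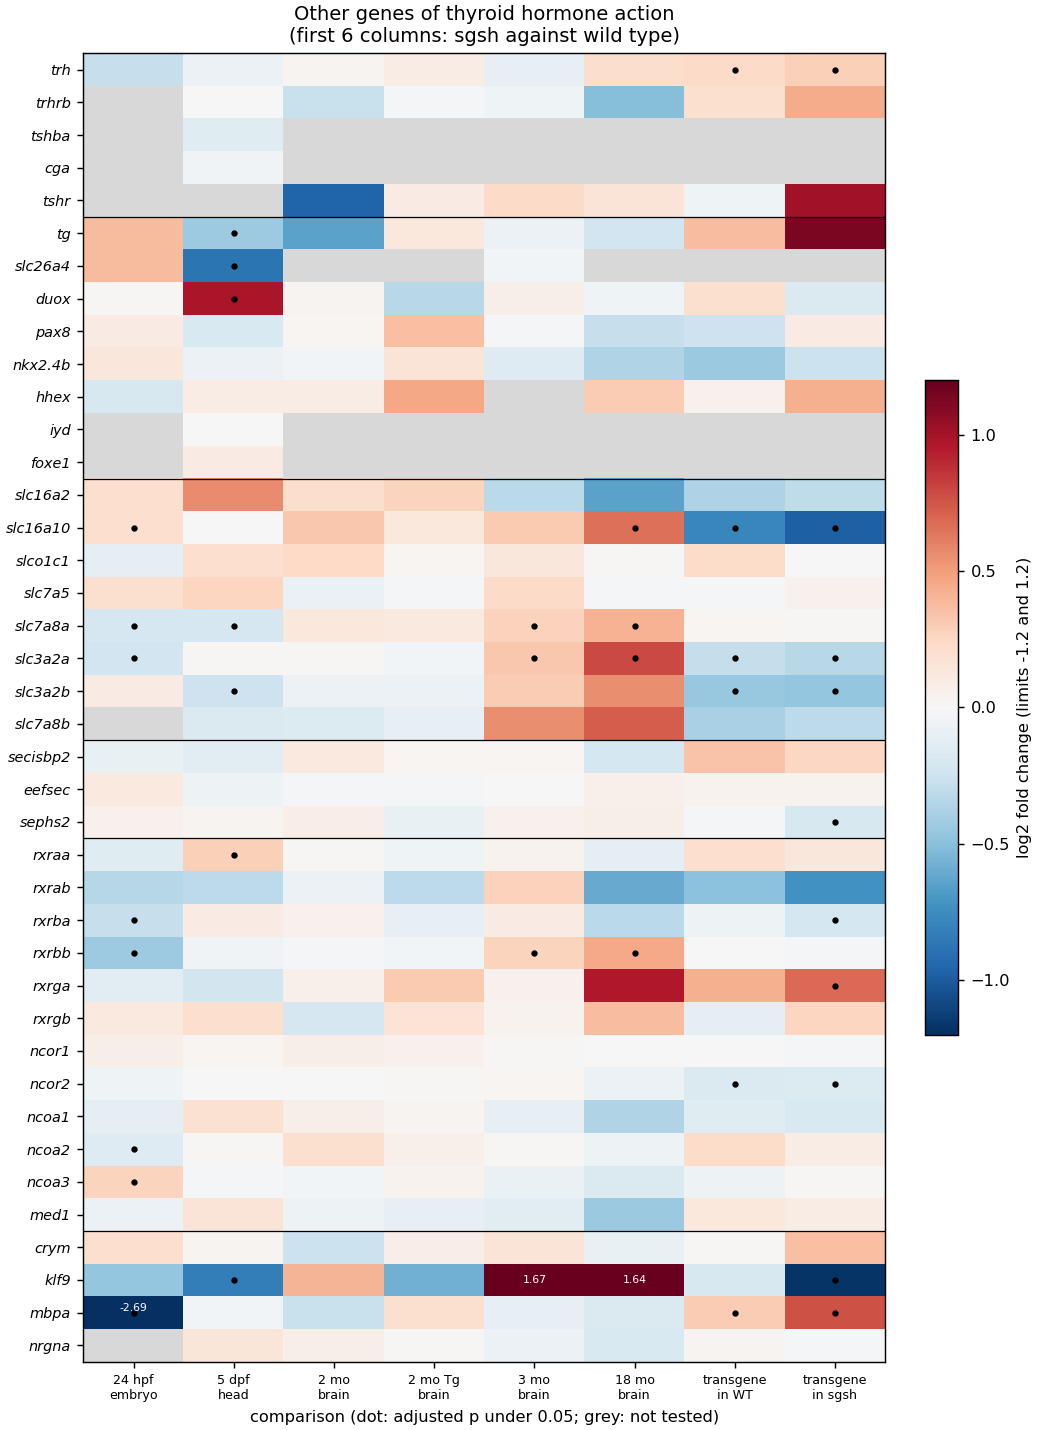
log2 fold changes (colour, limits -1.2 and 1.2, values beyond them printed) of the other listed genes of thyroid hormone action (rows, in blocks by role) in 8 comparisons (columns), with a dot where the adjusted p was under 0.05 and grey where a gene was not tested. The transporter rows slc3a2a and slc7a8a are red and dotted in the 3- and 18-month columns, and no gene is dotted in the 2-month columns of genotype.

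Over the 24 brain libraries, each gene's log2 level was centred within its kind of file and the genes most like each member were read off among 19306 genes. These correlations describe libraries that share stage, genotype and transgene. slc5a5 was most like rh50 (r = 0.87), sdf2 (0.86) and ahcyl1 (0.86), and dio2 most like inhbaa (0.85), lypd6 (0.78) and grb10a (0.77). thraa followed slc16a3b (0.87), dio1 followed mhc1uba (0.86), dio3b followed ENSDARG00000095821, which the tables give no symbol (0.87), and then zgc:172106 (0.84) and il6st (0.81), and thrb followed VPS50 (0.80). Among the members themselves the closest pairs were thraa with dio2 (r = 0.64) and dio1 with dio3b (0.62), and the most opposed was thrb with slc5a5 (-0.48).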

How the data were processed

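RNA was extracted with TRIzol, and 150-base paired-end libraries were sequenced on the DNBSEQ platform. The deposited values are whole-number counts of reads per gene, not normalized, made by the authors. The 24 hpf, 3-month and 18-month libraries came as 1 table, whose name gives STAR and featureCounts. The 5 dpf and 2-month files carry a header of featureCounts 2.0.1 with strand-specific counting of read pairs of mapping quality 10 or more. Whether the table was counted by strand, and its filters, are not given in the sources used here. The submitters' processing notes name HISAT2, Bowtie2, RSEM and GRCz11. Columns mapped to no sample numbered 0.

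Counts were fitted with edgeR 4.0.16 in R 4.3.3 (filterByExpr with minimum count 10 and total 15, TMM, quasi-likelihood F-test, Benjamini-Hochberg adjustment over all genes tested, two-sided, threshold 0.05), tested on simulated counts first. Two-group fits were used for genotype at 24 hpf, 5 dpf, 3 and 18 months, and 12-library fits otherwise. Alternatives were RLE and upper-quartile scaling, no filter, 10 counts in every library, a replicate block, DESeq2 1.42.0, joint or separate fits, and each library left out in turn. CPM used all gene counts, and likeness used log2(CPM + 0.5). All 36 within-group library pairs differed beyond sampling noise, so none was counted once. Library totals were 16200025 to 26038889 counts, and counting intervals and floors cover counting error only.

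The members with a row are counted in the comparisons that tested them, and those called are named, while not every uncalled value is printed. Other pathway genes are named only from the list by role. Members, lists and tests were chosen with earlier results of these data known. Interactions of genotype and stage, and their alternatives, were added after seeing the data. The sequence tables and genome that sequences would be read from were not used here.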

Additional observations from a re-analysis of the deposited data

Results flagged for a closer look

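For several members the difference between sgsh and wild type was itself tested between stages, with interaction terms added after the values had been seen. thraa was lower in sgsh heads and higher in sgsh brain at 18 months. Every mutant library lay below every wild-type one in the heads (log2 -0.57) and above every wild-type one at 3 months (0.26, not called) and 18 months (0.72, a call lost on leaving out any 1 library). The genotype difference, sgsh against wild type, changed sign. It shifted by log2 0.84 from 5 dpf to 3 months (edgeR's quasi-likelihood test, adjusted p = 0.00113) and by 1.26 from 5 dpf to 18 months (adjusted p = 0.00157). Both calls held under every alternative run for them. dio3b was lower in sgsh at the early stages and was not called in brain. Its genotype difference shifted by 0.55 from 24 hpf to 3 months (adjusted p = 0.0468, lost without any of 8 of the 12 libraries), by 0.95 from 5 dpf to 3 months (0.000231) and by 0.74 from 5 dpf to 18 months (0.00214), the last 2 holding under every alternative. slc5a5 in sgsh was below all wild-type libraries at 2 months without the transgene (log2 -0.35, with the closest libraries level at 18.7 CPM, not called). In transgenic 2-month brain the groups overlapped, and the log2 difference was 0.11 to 0.42 with a library left out (not called). slc5a5 in sgsh was above all wild-type libraries at 3 months (0.53) and 18 months (0.60, not called). Against the 2-month brains without the transgene, the shift was 0.87 to 3 months (adjusted p = 0.037) and 0.93 to 18 months (0.0497). These calls were lost without any of 10 and any of 9 of the 12 libraries.

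All of these shifts except that of dio3b from 24 hpf to 3 months cross the 2 kinds of file, so stage and kind of file cannot be told apart in them, and head and brain also differ in tissue. Within the files counted alike, the shift from 5 dpf to 2 months was 0.60 for thraa (adjusted p = 0.0881) and 0.62 for dio3b (0.0567), and neither was called by edgeR, while DESeq2 called dio3b (0.0254). Leaving out 2-month sgsh replicate 3 brought thraa (0.0171) and dio3b (0.0331) under the threshold.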

How the results depend on the processing

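Of 136 results of members, 46 were called, 36 of them under every alternative run for them, and none of the 46 turned its sign. 12 uncalled results were called under some alternative. The number of members called changed with the setting as follows, in the comparisons other than genotype by stage. At 24 hpf it went from 2 to 0 with DESeq2, and to between 0 and 2 with a library left out. At 3 months it was 1 in the joint fit with 18 months and 1 to 2 with a library left out. At 18 months it was 0 with RLE scaling, without a filter and with the replicate block, 2 with DESeq2, 3 in the joint fit and 0 to 1 with a library left out. At 5 dpf it was 3 to 4 with a library left out. For the transgene in wild type it was 3 in the 6 libraries alone and 0 to 2 with a library left out, and in sgsh 2 in its 6 libraries alone and 2 to 4 with a library left out. For age in sgsh it was 1 to 2 with a library left out, and in wild type 2 with the replicate block. From embryo to brain it was 7 in both genotypes without a filter, 7 in wild type with DESeq2 and 4 in both with 10 counts in every library. From head to brain it was 7 in wild type in the 6 libraries alone, and in sgsh 5 with 10 counts in every library and 6 to 7 with a library left out. In the comparisons of 2 groups, deviations of same-numbered libraries from their group means had correlations over genes of -0.32 to 0.16. For sgsh against wild type they were all positive but small at 5 dpf (0.036 to 0.14) and in 2-month brain (0.060 to 0.066). In each other comparison of 2 groups at least 1 was negative. The replicate block ended the call of thraa at 18 months (adjusted p = 0.13) and, between stages, those of dio3b from 24 hpf to 3 months (0.0593) and slc5a5 from 2 to 18 months (0.0808). It brought under the threshold dio2 for age in wild type (0.0481) and dio3b between 5 dpf and 2 months (0.0382), and it changed no other call of a member. slc5a5 between 2 and 18 months was also lost without a filter (0.0554). dio2 at 2 months turned from 0.00 to 0.0041 (RLE), 0.0025 (10 counts in every library), 0.0045 (DESeq2) and 0.0011 (6 libraries alone). With a library left out, uncalled log2 differences around 0 ranged as follows for sgsh against wild type: thraa at 24 hpf -0.077 to 0.055, slc5a5 -0.13 to 0.16 and dio2 -0.060 to 0.15 at 5 dpf, dio1 -0.0088 to 0.13 and thrb -0.14 to 0.017 at 3 months, and, at 2 months, thraa -0.092 to 0.15, dio1 -0.34 to 0.16, dio2 -0.19 to 0.13 and thrb -0.17 to 0.17, and with the transgene thraa -0.24 to 0.017, dio3b -0.19 to 0.075 and thrb -0.085 to 0.043. For the transgene in sgsh dio2 ranged -0.36 to 0.13 and thrb -0.17 to 0.17. Genotype by transgene gave dio3b -0.0028 to 0.26, dio1 -0.37 to 0.17 and thrb -0.21 to 0.13. thrb with age in sgsh gave -0.0086 to 0.13. Genotype by age gave slc5a5 -0.042 to 0.26, dio1 -0.031 to 0.22 and dio2 -0.11 to 0.29. Genotype by stage gave dio2 -0.24 to 0.088 and thrb -0.13 to 0.21 between 5 dpf and 2 months, ttr -1.63 to 2.66 and thrb -0.085 to 0.073 between 5 dpf and 3 months, dio1 -0.11 to 0.38 and thrb -0.22 to 0.12 between 2 and 3 months, and dio1 -0.031 to 0.47 between 2 and 18 months. thrb between 5 dpf and 3 months turned from 0.0036 to -0.015 (upper quartile), -0.016 (no filter) and -0.00084 (DESeq2). Counts of called genes over all genes moved by more than 1.5 times in several comparisons of genotype. They were 4369 at 24 hpf (2599 to 4380 under the alternatives other than leaving out a library), 3110 at 5 dpf (1868 to 3490, and 2001 to 3038 with a library left out), 576 at 3 months (292 to 809, and 172 to 469 with a library left out), 1352 at 18 months (290 to 3711, and 189 to 3453), 166 at 2 months (94 to 274, and 77 to 164) and 6 with the transgene (6 to 24, and 2 to 6). For age in wild type the count was 4295 (2655 to 3361 with a library left out) and in sgsh 4013 (2273 to 3994, and 2318 to 5019), for the transgene in wild type 3009 (1795 to 2334 with a library left out), for genotype by transgene 25 (17 to 110, and 3 to 31) and for genotype by age 26 (14 to 221, and 8 to 463). The causes were not tested. With 3 libraries a group and 2 to 16 counts of dio2, slc5a5 and ttr in each embryo library, small differences there were not detectable.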
